A study of Mus musculus with 2 samples.

Results

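Mediator is a large complex that carries signals from DNA-bound transcription factors to RNA polymerase II at gene starts. Its head and middle modules contact the polymerase, its tail contacts activators, Med14 runs through the complex as a scaffold, and a separable kinase module built from Cdk8 or Cdk19, cyclin C, Med12 or Med12l, and Med13 or Med13l regulates the docking of the polymerase. Several kinase module genes exist in vertebrates as pairs of paralogs. MED13L is best known in humans from developmental disorders that can include congenital heart defects.

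ATAC-seq, in which Tn5 transposase inserts adapters into accessible DNA, was used to map open chromatin in cardiac progenitor cells (CPCs) obtained at day 5 of cardiac differentiation from mouse E14 Tg(Nkx2-5-EmGFP) embryonic stem cells, which carry a fluorescent reporter for the cardiac transcription factor Nkx2-5. Both samples belonged to 1 group, untreated day 5 CPCs of passages 16-20 with the strain given as C57BL/6, and came from independent differentiations. Whether that strain label is right for the E14 line was not checked. The data are 1 list of peaks common to both replicates, without separate values per replicate, and no condition could be compared with another. The Isl1 knockdown cells that the series also names are not analysed here. The intervals given below cover counting error over genes or peaks only.

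The Mediator genes were taken as all those whose assigned symbol starts with Med and a digit, together with Cdk8, Cdk19 and Ccnc. Of 26232 distinct peaks in the list, 54 were assigned to 30 of these genes, out of 15351 genes with a peak. The RefSeq gene table holds 33 coding genes of this kind, and Med19, Med20 and Med31 were the members to which no peak was assigned. The noncoding Med9os also fits the naming rule and has no peak in the list.

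Every Mediator gene start was covered by open chromatin, as were 90.0% of all CpG-rich coding gene starts, the class to which most members belong. Of the 30 members with an assigned peak 22 had that promoter peak and nothing else, and 60.8% of all genes with a peak had exactly 1. Each of the 30 genes had exactly 1 peak within 1 kb of the transcription start site (TSS), referred to here as its promoter peak, and the remaining 24 peaks were distal. Med13l differed from the other members in the number of its peaks. It had 13, of which 12 were distal, and 9 of those lay in a series upstream of the gene.

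The sequences of the Med13l locus are shown first, because the results turn on this gene. All are on the + strand of mm9, the strand of Med13l. The bases directly before the Med13l start are chr5:119010478-119010727, and capitals mark the letters GGGCGG on either strand, the core of SP and KLF factor motifs. The central 300 bp of the widest distal peak are chr5:118885867-118886166, and capitals mark CATCTG, an E-box letter string of HAND and other factors, and TNAAGTG, the NKX2-5 string. The central 300 bp of the farthest intronic peak are chr5:119158228-119158527, and capitals mark the TEAD string GGAATG, the E-box string CATCTG and a CTCF string, each on either strand.
Med13l upstream of the start: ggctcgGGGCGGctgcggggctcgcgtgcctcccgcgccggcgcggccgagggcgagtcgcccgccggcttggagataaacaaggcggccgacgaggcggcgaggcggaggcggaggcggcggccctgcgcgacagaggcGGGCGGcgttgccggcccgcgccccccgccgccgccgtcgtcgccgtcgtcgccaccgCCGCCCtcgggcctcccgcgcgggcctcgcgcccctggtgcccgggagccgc
Med13l distal peak at -124712 bp: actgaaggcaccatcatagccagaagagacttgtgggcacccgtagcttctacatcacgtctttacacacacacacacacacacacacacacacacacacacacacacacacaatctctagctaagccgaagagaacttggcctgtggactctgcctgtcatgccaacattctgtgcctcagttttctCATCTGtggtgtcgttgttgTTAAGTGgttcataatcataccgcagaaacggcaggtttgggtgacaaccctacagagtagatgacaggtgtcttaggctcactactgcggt
Med13l intronic peak at 147649 bp: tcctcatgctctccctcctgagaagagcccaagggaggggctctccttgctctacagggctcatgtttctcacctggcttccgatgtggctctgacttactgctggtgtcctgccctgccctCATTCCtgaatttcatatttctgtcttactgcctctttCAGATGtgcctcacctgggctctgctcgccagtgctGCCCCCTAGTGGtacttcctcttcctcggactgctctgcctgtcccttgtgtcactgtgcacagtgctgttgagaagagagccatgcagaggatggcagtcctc
The 250 bp before the start were 84.0% G or C, with an observed over expected CpG ratio of 1.16. The window of the widest distal peak was 49.0% G or C with a ratio of 0.40, and it held a run of 49 bases of alternating C and A. The intronic window was 56.0% G or C with a ratio of 0.13.

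Open chromatin at the starts of Mediator genes was described first. An assigned peak was present for 30 of 33 members (90.9%, 95% Wilson interval 76.4 to 96.9%), against 62.5% of all protein coding RefSeq genes. Counting a peak within 500 bp of any GENCODE start of the gene, whichever gene it had been assigned to, covered all 33 of 33 members (interval 89.6 to 100%), against 56.2% of all coding genes. Among genes with any assigned peak, 30 of 30 members had 1 within 1 kb of a TSS, against 74.6% of all genes. A CpG-rich start, with at least 50% G or C and a CpG ratio of at least 0.6 in the 500 bp on either side, was present for 30 of the 33 members (all except Med6, Med24 and Med27) and for 44.6% of all coding genes. Of all coding genes with a CpG-rich start, 90.0% were covered by a peak, and of those with a CpG-poor start 29.0%. Read against the CpG-rich class, the coverage of the members was thus close to the general level.

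The 3 members without an assigned peak had their starts covered by a peak that the list gives to a neighbouring gene. The start of Med20, a head subunit that pairs with Med18, lay under a peak of 1481 bp at chr17:47747578-47749058 that is assigned to Bysl, a ribosome biogenesis gene transcribed in the opposite direction from a start 90 bp away. Med19, a middle module subunit, lay under a peak of 1514 bp at chr2:84517574-84519087 assigned to the divergent gene Tmx2, whose nearest start lies 284 bp away. Med31, another middle subunit, lay under a peak of 1299 bp at chr11:72028102-72029400 assigned to 4930563E22Rik, which begins inside Med31. Since each line of the list carries 1 gene, a shared start of a member counted for 1 of its genes only.

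Divergent coding partners within 1 kb were found for 5 of 33 members (15.2%, interval 6.65 to 30.9%), against 9.56% of all coding genes, a difference within the interval. They included Med22 with the ribosomal protein gene Rpl7a at 87 bp and Med29 with Paf1, a subunit of the Paf1 elongation complex, at 243 bp. For these pairs the shared peak was assigned to the Mediator gene. The stretches between the paired starts of Med20, Med22 and Med29 are shown because 1 peak covers both genes of each pair. They are mm9 sequence free of annotated exons, each written on the strand of the Mediator gene, namely chr17:47748442-47748530 (+), chr2:26766198-26766283 (-) and chr7:29177728-29177969 (-). Capitals mark CCAAT (NF-Y) and GGGCGG (SP and KLF) on either strand.
Bysl to Med20: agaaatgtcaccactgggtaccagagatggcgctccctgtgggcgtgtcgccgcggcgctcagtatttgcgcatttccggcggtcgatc
Rpl7a to Med22: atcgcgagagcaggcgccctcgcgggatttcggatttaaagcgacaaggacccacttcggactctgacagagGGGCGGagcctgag
Paf1 to Med29: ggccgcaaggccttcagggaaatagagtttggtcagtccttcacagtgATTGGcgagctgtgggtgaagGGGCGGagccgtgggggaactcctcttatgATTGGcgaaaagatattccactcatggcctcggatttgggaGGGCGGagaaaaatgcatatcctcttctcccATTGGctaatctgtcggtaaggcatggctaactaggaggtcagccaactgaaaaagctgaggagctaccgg

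**Figure D1:**
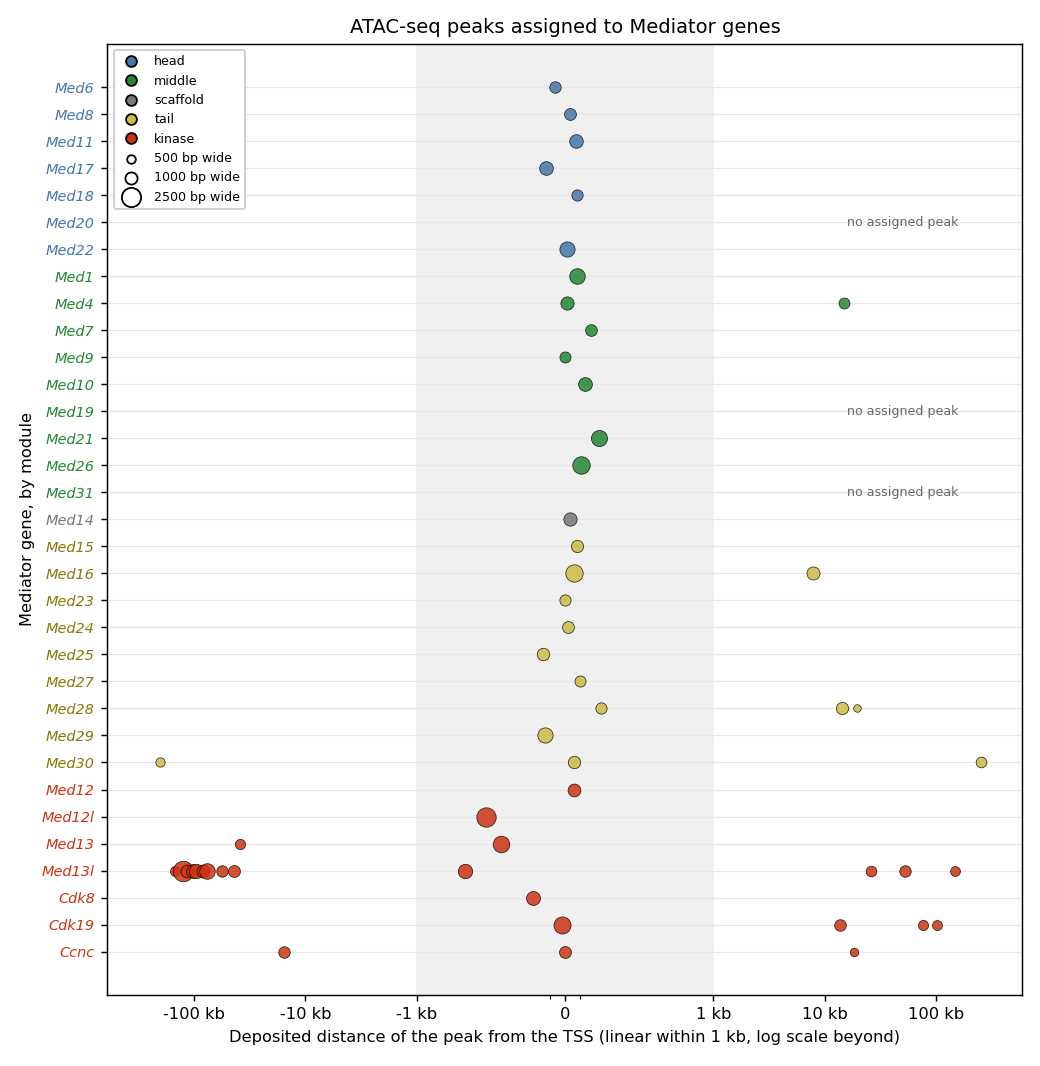
Peaks assigned to each Mediator gene, by their deposited signed distance from the TSS (x axis, linear within 1 kb and logarithmic beyond, negative upstream). Circles are peaks, their area scales with peak width, colours are modules, and the grey band marks 1 kb on either side of the TSS. All 30 genes with a peak have 1 circle in the band, and 12 of the 24 circles outside it belong to Med13l.

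The number of peaks per gene was low for most members. Among the 30 genes the mean was 1.80 (SD 2.27, n = 30) and the median 1, compared with a mean of 1.71 (SD 1.21, n = 15351) and a median of 1 for all genes with a peak. Without Med13l the members' mean was 1.41 (SD 0.82, n = 29). Exactly 1 peak was found for 22 of 30 members (73.3%, interval 55.6 to 85.8%), against 60.8% of all genes with a peak, so the share of single-peak genes among the members was not distinguishable from the background. Med4, Med13 and Med16 had 2 peaks, Med28, Med30 and Ccnc had 3, Cdk19 had 4 and Med13l had 13. Only 4 genes in the list, or 0.0261%, had 13 or more peaks. These were Rgs3 and Tead1 with 14 and Rnf220 and Med13l with 13.

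**Figure D2:**
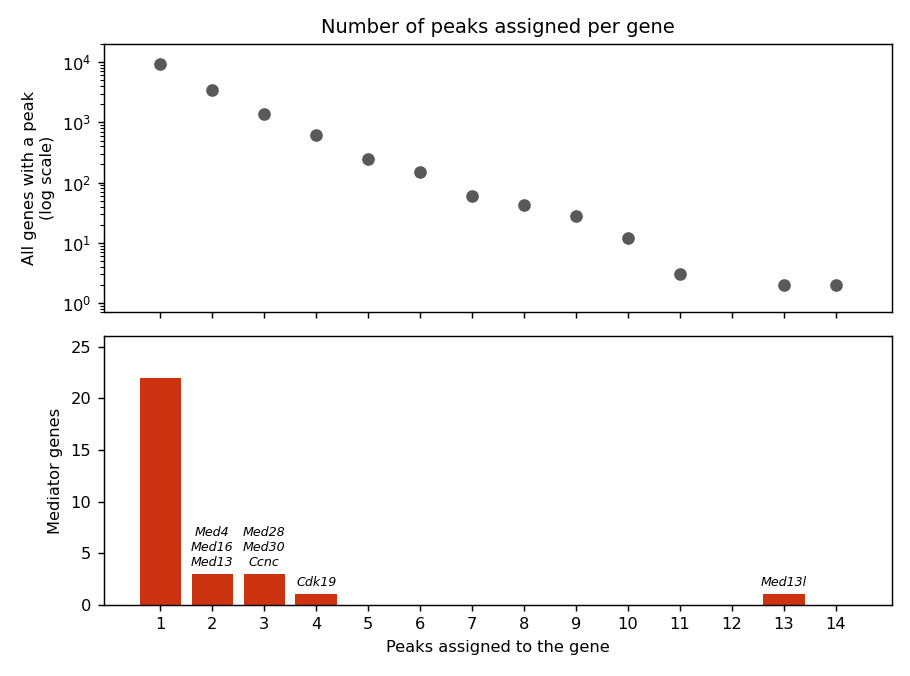
Number of genes (y axes, logarithmic for all 15351 genes with a peak in the upper panel and linear for the 30 Mediator genes in the lower panel) by the number of peaks assigned to the gene (x axis). The members fall at 1 to 4 peaks apart from Med13l at 13, and each member with more than 1 peak is named.

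The distal peaks were unevenly divided among the modules. The head module had 6 peaks on 6 of 7 genes and no distal peak, and the scaffold gene Med14 had its promoter peak alone. The middle module had 8 peaks on 7 of 9 genes, with 1 distal. The tail had 14 peaks on 9 of 9 genes, with 5 distal. These counts depend on the module lists, since Med27, Med28, Med29 and Med30 were listed with the tail although structures also place them at the head. With those genes in the head, the distal peaks of Med28 and Med30 would count for the head. The kinase module had 25 peaks on 7 of 7 genes, with 18 distal, and Med13l held 12 of these 18. Of all member peaks 30 of 54 lay within 1 kb of a TSS (55.6%, interval 42.4 to 68.0%), against 44.9% of all peaks. Without Med13l the share was 29 of 41 (70.7%, interval 55.5 to 82.4%).

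In the head module as listed here, which touches the polymerase and the general factors, all 6 assigned peaks lay within 126 bp of a TSS. Med17, its central subunit, had a promoter peak of 1255 bp at -126 bp (chr9:15083811-15085065). Med6, which also contacts the middle module, had 887 bp at -69 bp (chr12:82695622-82696508). Med8 had 943 bp at 32 bp (chr4:118081504-118082446), and Med18, which binds Med20, had 851 bp at 81 bp (chr4:132019331-132020181). The peaks of Med6, Med8 and Med18 were narrower than the members' median of 1186 bp, and those of Med17 and of the partner subunits Med11 and Med22 were wider. Med11 had 1241 bp at 76 bp (chr11:70264890-70266130) and Med22 1559 bp at 16 bp (chr2:26765368-26766926).

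In the middle module the peak centres lay at or downstream of the TSS. Med1, the subunit through which many nuclear receptors recruit Mediator, had a promoter peak of 1630 bp at 81 bp (chr11:98053712-98055341). Med26, which links Mediator to elongation factors, had the widest of the module, 2051 bp at 105 bp (chr8:75071080-75073130). Med21, a partner of Med7 in the hinge, had 1750 bp at 229 bp (chr6:146590456-146592205), while Med7 had 927 bp at 174 bp (chr11:46250175-46251101). The remaining members of the module were Med10 with 1274 bp at 136 bp (chr13:69948260-69949533), Med9 with 828 bp at 0 bp (chr11:59761303-59762130) and Med4. The promoter peak of Med4 was 1182 bp wide at 11 bp (chr14:73909277-73910458). Its other peak, 806 bp at 15017 bp (chr14:73924471-73925276), lay 253 bp upstream of an annotated start of Sucla2, a subunit of succinyl-CoA ligase, so by GENCODE it sits at the promoter of that gene.

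The scaffold subunit Med14 on chromosome X had 1 peak of 1190 bp at 35 bp (chrX:12338470-12339659).

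In the tail, which receives most activators, 6 of 9 genes had a promoter peak only. Med15, known as a target of lipid and TGF-beta regulated activators, had 1005 bp at 78 bp (chr16:17722414-17723418). Med23, which binds the growth factor responsive Elk1, had 849 bp at -1 bp (chr10:24589368-24590216). Med24 had 948 bp at 18 bp (chr11:98590258-98591205), and a further peak of 1192 bp inside its gene body is assigned to the neighbouring Csf3. Med25, which binds ETS family activators, had 1054 bp at -147 bp (chr7:52147415-52148468). Med27 had 820 bp at 104 bp (chr2:29202025-29202844), the narrowest promoter peak of any member, although the gene spans 178.0 kb. Med29 had 1564 bp at -137 bp (chr7:29177065-29178628).

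The tail genes with distal peaks were Med16, Med28 and Med30. Med16 had a promoter peak of 2028 bp at 59 bp (chr10:79370611-79372638) and a peak of 1149 bp in its own intron at 7787 bp (chr10:79363323-79364471). Med28 had a promoter peak of 856 bp at 241 bp (chr5:45911282-45912137). Its other peaks lay past its end in Fam184b, with 1011 bp in an intron at 14331 bp (chr5:45925295-45926305) and 388 bp over a coding exon at 19442 bp (chr5:45930717-45931104). Nearly all distal peaks of the list, 99.9%, were as wide as or wider than the latter. Med30 had a promoter peak of 1034 bp at 64 bp (chr15:52543548-52544581) and intergenic peaks far to either side, with 587 bp at -202357 bp (chr15:52341351-52341937) and 763 bp at 255471 bp (chr15:52799091-52799853). The nearest annotated coding starts by GENCODE were those of Gm10020 and Ext1, not that of Med30.

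The kinase module held most of the distal peaks, and its paralogs were set side by side. Med12, which activates the kinase, had 1 promoter peak of 1114 bp at 63 bp (chrX:98468937-98470050). Its paralog Med12l also had 1, which at 2534 bp was the widest promoter peak of any member and was centred at -532 bp (chr3:58809102-58811635). Among all promoter peaks of the list 4.07% were as wide. The body of Med12l, 311.4 kb long, held 3 further peaks of 1103, 915 and 914 bp that the list assigns to Gpr171 and P2ry14, receptor genes nested within it. Counting by gene body, Med12l thus had as many internal peaks as Med13l, and genes of 150 to 350 kb had a median of 2, with 32.7% having at least 3.

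Med13, the subunit that joins the kinase module to the core, had a promoter peak of 1861 bp at -434 bp (chr11:86170532-86172392) and 1 intergenic peak of 716 bp at -38285 bp (chr11:86208955-86209670). Its paralog Med13l had 12 distal peaks where Med13 had 1. The kinase Cdk8 had 1 peak of 1305 bp at -212 bp (chr5:147042388-147043692). Its paralog Cdk19 had a promoter peak of 1965 bp at -22 bp (chr10:40068111-40070075) and 3 intronic peaks of 912 bp at 13882 bp (chr10:40082541-40083452), 703 bp at 76537 bp (chr10:40145301-40146003) and 659 bp at 102590 bp (chr10:40171376-40172034). Med13l and Cdk19 thus had more peaks than their paralogs, and Med12 and Med12l had equal counts. Med13l (204717 bp) is also longer than Med13 (90570 bp), and Cdk19 (134511 bp) is longer than Cdk8 (71645 bp). Med12l (311433 bp) is longer than Med12 (23436 bp) without having more assigned peaks. A role of gene length in these counts was not tested. The cyclin gene Ccnc had a promoter peak of 960 bp at -3 bp (chr4:21654366-21655325), an intergenic peak of 898 bp at -15402 bp (chr4:21638998-21639895) and an intronic peak of 486 bp at 18209 bp (chr4:21672815-21673300).

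Promoter peaks of the members were not wider than those of other genes. Their median width was 1186 bp (order statistic interval 960 to 1395 bp, n = 30), with quartiles of 944 and 1563 bp, and that of all promoter peaks was 1326 bp (n = 11772), with quartiles of 1072 and 1691 bp. The module medians were 1092 bp for the head, 1274 bp for the middle, 1005 bp for the tail and 1395 bp for the kinase module. The ranges overlapped, as the kinase module ran from 960 bp for Ccnc to 2534 bp for Med12l and the tail from 820 bp for Med27 to 2028 bp for Med16. The 5 widest promoter peaks were those of Med12l, Med26, Med16, Cdk19 and Med13, so 3 of the 5 belonged to the kinase module.

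**Figure D3:**
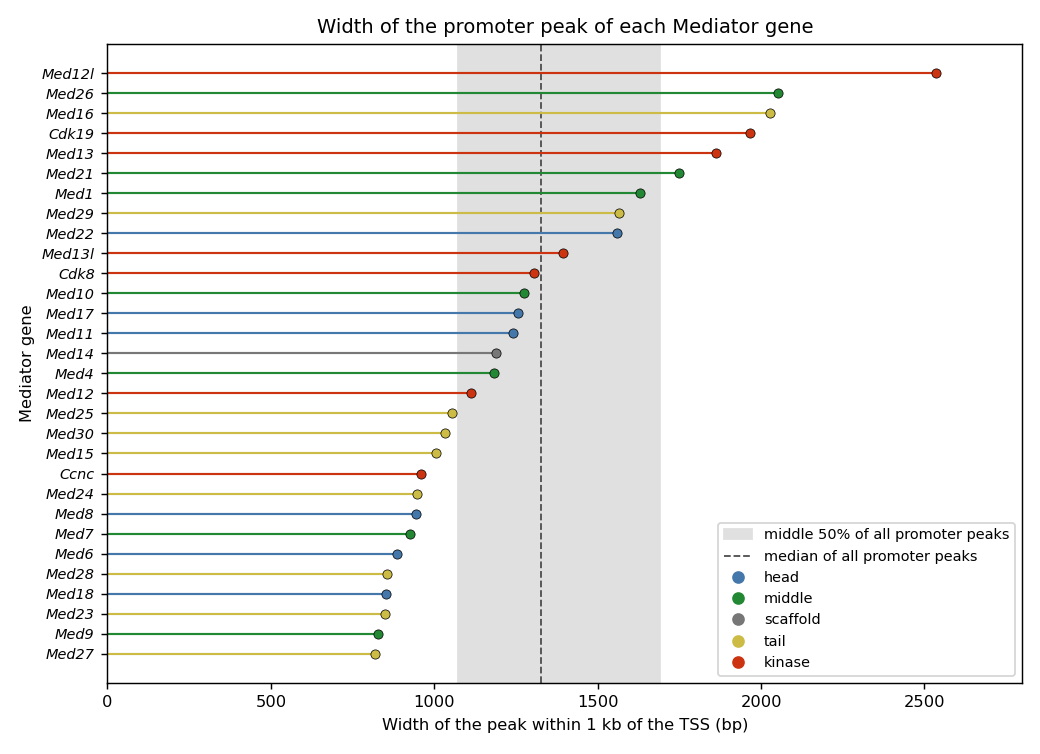
Width in bp (x axis) of the promoter peak of each of the 30 Mediator genes with an assigned peak (y axis, sorted, coloured by module). The grey band is the range between the quartiles of all promoter peaks, 1072 to 1691 bp, and the dashed line is their median of 1326 bp. The members run from 820 bp for Med27 to 2534 bp for Med12l.

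The position of the promoter peak relative to the TSS also varied by module. Its median was 25 bp downstream of the TSS for the members and 61 bp for all promoter peaks. In the kinase module the median was -212 bp, and 6 of 7 values were negative, against 36.7% of all 30 member promoter peaks and 35.4% of all promoter peaks of the list. That median is the value of Cdk8, and the negative values of Cdk19 and Ccnc were only -22 and -3 bp. Med13l at -674 bp, Med12l at -532 bp and Med13 at -434 bp lay more than 400 bp upstream, which held for no other member and for 3.51% of all promoter peaks. By the nearest GENCODE start these 3 were again upstream, at -673, -532 and -358 bp, so Med13 then lay less than 400 bp upstream. The cut of 400 bp was not among the planned settings and falls just short of the listed distance of Med13. The share of 3.51% is therefore a description only. For Cdk8 the value changed from -212 bp in the list to 79 bp, and for Med12 from 63 to -75 bp. The sign for those 2 genes and the median of the module thus depend on the start that is used.

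The Med13l locus was then examined peak by peak. The gene lies on the + strand of chromosome 5 (mm9 chr5:119010728-119215444, 204.7 kb) with 1 annotated coding start. Its promoter peak was 1395 bp wide (chr5:119009358-119010752) and 73.0% G or C with a CpG ratio of 1.00. The peak ended 25 bases inside the gene, so nearly all of it lay upstream of the TSS.

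The 9 upstream distal peaks were all intergenic and spanned 103.9 kb. The farthest lay at -147046 bp and was 683 bp wide (chr5:118863342-118864024). The next, at -124712 bp, was the widest at 2828 bp (chr5:118884603-118887430), a width that 0.934% of all distal peaks reached. It is the interval that stands on 2 lines of the list, both assigned to Med13l. An interval of 1 replicate that overlaps 2 peaks of the other could be listed in this way, which was not tested. Then came 1121 bp at -115590 bp (chr5:118894579-118895699). A denser stretch followed, with peaks of 1269 bp at -101374 bp (chr5:118908721-118909989), 1415 bp at -95282 bp (chr5:118914740-118916154), 1115 bp at -82329 bp (chr5:118927843-118928957) and 1636 bp at -77196 bp (chr5:118932715-118934350). The last was as wide as or wider than all but 7.69% of distal peaks. The peaks nearest to the gene in this series were narrower, with 886 bp at -55526 bp (chr5:118954760-118955645) and 962 bp at -43942 bp (chr5:118966306-118967267). Gaps between neighbours in the series ran from 3757 to 20578 bp with a median of 11174 bp, and a stretch of 42090 bp without a peak separated it from the promoter peak. No 2 of these peaks were within 1 kb of each other, so merging close peaks left the count at 13.

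The 3 peaks downstream of the TSS lay in introns of Med13l. They were 766 bp at 25881 bp (chr5:119036227-119036992), 893 bp at 52778 bp (chr5:119063061-119063953) and 648 bp at 147649 bp (chr5:119158054-119158701). Their median width was 766 bp, that of the 9 upstream distal peaks 1121 bp (range 683 to 2828 bp), and that of all distal peaks 911 bp with quartiles of 735 and 1146 bp. For the 12 distal peaks of Med13l the median was 1038.5 bp (interval 766 to 1415 bp), and for the 12 distal peaks of the other members 739.5 bp (interval 587 to 912 bp). These intervals overlapped. The distal peaks of Med13l had a G or C content of 47.9 to 56.2% and CpG ratios of 0.17 to 0.36, all well under those of its promoter peak.

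**Figure D4:**
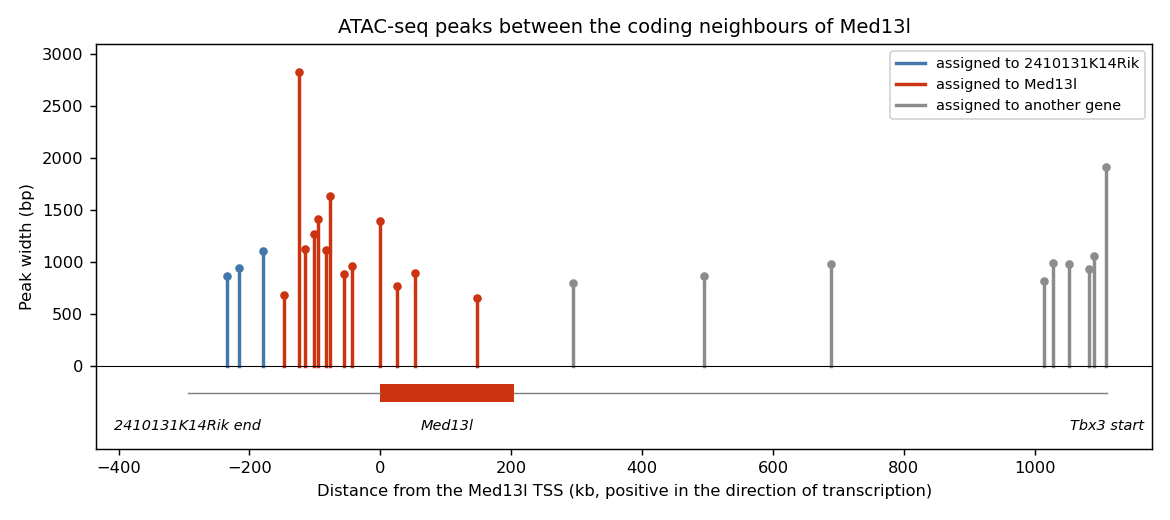
Width in bp (y axis) and distance from the Med13l TSS in kb (x axis, positive in the direction of transcription) of the 25 peaks centred between the coding neighbours of Med13l, coloured by the assigned gene, with the gene body as a bar. The rightmost peak is the promoter peak of Tbx3 and reaches over its start. The 9 upstream distal peaks of Med13l cluster between -147 and -43.9 kb, the 2828 bp peak stands out by its width, and the downstream gap of 905.2 kb before Tbx3 holds no peak assigned to Med13l.

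The surroundings of Med13l were also described without the gene assignments of the list. The interval between the end of 2410131K14Rik and the start of Med13l is 294.6 kb long and free of coding genes. It held 12 peaks more than 1 kb from its ends, or 4.07 per 100 kb, 9 of them assigned to Med13l and 3 to 2410131K14Rik. Among 750 intervals of 200 to 400 kb between coding genes the median was 1 peak, and this was the only interval with 12 or more (0.133%). Since Med13l drew attention by its count, this rank is a description of the same peaks and not separate evidence. The interval downstream, to the cardiac T-box gene Tbx3, is 905.2 kb long and held 8 peaks, or 0.884 per 100 kb. Of 342 intervals of 600 to 1200 kb, 11 had as many. Those peaks were assigned to Tbx3 itself and to 4930413E15Rik, 1700081H04Rik, Gm7538, AW549542 and Gm16063, and none to Med13l.

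Counting by overlap with the gene body and the 2 kb before it, Med13l had 4 peaks, and among peaks wider than the median of the list it had 7. The count of 13 rests on the gene assignments of the list, and no measurement here links an upstream peak to Med13l or to another gene.

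Letter strings of cardiac and general factors were searched in the central 300 bp of each distal peak, on both strands. At least 1 of 9 strings was present in 7 of the 12 distal Med13l peaks, against 64.9% of all 14460 distal peaks. The AP-1 string TGANTCA was found in 3 (25.0%, Wilson interval 8.89 to 53.2%), at -147046, -101374 and 52778 bp, against 9.88% of all distal peaks. CATCTG was found in 3, against 23.0%, and the TEAD string GGAATG in 3, against 22.4%. The NKX2-5 string TNAAGTG was found in 2, at -124712 and -101374 bp, against 12.7%. The CTCF string, whose letters are the last capitals of the intronic sequence above, was found in 1, the peak at 147649 bp, against 3.47%. None of the 12 windows held AGATAA, the string of the Gata factors (14.6% of all distal peaks), CTAATG, that of ISL1 and other homeodomains (9.67%), AGGTGTNA, that of T-box factors (4.30%), or the MEF2 string (CTA, then any 4 bases and TAG, 3.56%), and 0 of 12 allows a share of up to 24.2% by the Wilson interval. Each interval included the share in all distal peaks. In whole peaks, which are longer, AGATAA was present in 5 of 12 and CTAATG in 4 of 12, against 36.7 and 26.9% of all distal peaks.

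The promoters of the members were searched in the same way, from 250 bases before to 50 after the start, in RefSeq sequence of GRCm38.p6. The table held 28 of the 33 members, without Med8, Med23, Med24, Med30 and Cdk19, and 17492 coding genes in all. GGGCGG was present in 18 of 28 (64.3%, Wilson interval 45.8 to 79.3%), against 46.3% of all promoters, and in all 6 kinase module genes that the table held. Among promoters with a CpG ratio of at least 0.6, which included 24 of the 28 members and 48.4% of all, the shares were 75 and 74.1%. This class is called CpG-rich in this paragraph. It is set by the ratio alone in the promoter sequence and is not the class of CpG-rich starts used above. CCGGAAG (ETS) was present in 7 of 28 (25.0%, interval 12.7 to 43.4%), in Med4, Med6, Med14, Med15, Med17, Med18 and Med19, against 11.9% of all promoters, just below the interval. In the CpG-rich class it was present in 25.0% of members against 19.9% of all. The NRF1 string GCATGCGC was found in Med4, Med15 and Med17 (10.7%, interval 3.71 to 27.2%), against 3.61% of all promoters, also just below the interval. In the CpG-rich class it was found in 8.33% of members against 6.50% of all. CCAAT was found in 11 of 28 members (39.3%), against 39.2%, and in 45.8% against 37.9% in the CpG-rich class. AANATGGCG (YY1) was found in Med21 and Med27 (7.14%), against 3.28%, and in 8.33% against 5.94% in the CpG-rich class. TGACGTNA (CREB and ATF) was found in Med21 alone (3.57%), against 3.60%, and in 4.17% against 5.87% in the CpG-rich class. The TATA box TATAAA was found in Med7, Med16 and Med28, 10.7% of the members against 13.3% of all promoters, whereas in the CpG-rich class the order turned, with 12.5% of members (3 of 24) against 5.85% of all.

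Other genes of the transcription machinery were described beside the members. Of 31 genes for general transcription factors, 26 had an assigned peak and all 31 had a covered start, with a mean of 1.35 peaks per gene with a peak and a maximum of 4 for Gtf2a1. Of 12 elongation genes, 10 had a peak and all 12 a covered start, with a maximum of 4 for Aff1. Of 10 cohesin genes, which include the loader Nipbl, 9 had a peak and all 10 a covered start, with a maximum of 2. Of 12 RNA polymerase II subunit genes, 7 had a peak and 8 a covered start. Among protein coding genes, 62.5% of RefSeq genes had an assigned peak and 56.2% of GENCODE genes a covered start. Of coding genes with a CpG-rich start, 90.0% had it covered. The polymerase share with a peak, 58.3%, was near that of all coding genes. The shares were 83.9% for general factors, 83.3% for elongation and 90.0% for cohesin. No gene of these 4 lists came near the count of Med13l. Markers of cell types were looked up in the same list, which is no test of the cell type. Isl1 had 8 peaks, Tbx5 5, Mef2c 4, and Nkx2-5 and Gata4 3 each. Of all genes with a peak, 16.5% had 3 or more and 7.62% had 4 or more. A GENCODE start was covered for 4 of these 5 cardiac genes, the exception being Mef2c, and a peak within 1 kb by the deposited distance was present for 4 of 5, the exception being Gata4. The pluripotency gene Pou5f1 had none and Nanog had 2, and the liver genes Alb and Apoa1 had 1 each, none of them over a start.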

How the data were processed

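ATAC-seq was performed on 2 replicates of day 5 CPCs. According to the methods of the study, bowtie2 alignments to mm9 were filtered with samtools and freed of duplicates (Picard 1.136). MACS14 then called peaks per replicate with no model and a set shift size. Blacklisted regions were dropped, and bedtools 2.15 (intersect -wa) retained the intervals that shared at least 1 bp between replicates. This option keeps the interval of 1 input whole, so widths and midpoints may be those of a single replicate. No correction for the Tn5 cut position beyond that shift is described. The list deposited by the authors has 6 columns (chromosome, start, end, signed TSS distance of the peak midpoint in bp, accession, symbol) and no score or count, so depth is unknown, and widths depend on the caller and the depth. HOMER annotation is described for the ChIP-Seq peaks, and for this list the annotation tool is not given in the sources used here.

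The 26429 lines were reduced to 26232 distinct intervals, printed 1-based on mm9. No peak ran past a chromosome end of NCBIM37. Gene models were GENCODE vM1, and the deposited distance equalled that to an annotated start within 1 bp for 41 of 54 member peaks and within 100 bp for 53. Coding genes with a peak were matched by symbol or unversioned accession. Shares carry 95% Wilson intervals and medians order statistic intervals. Scripts used Python 3.11.15, pysam 0.24.0, numpy 2.4.6 and matplotlib 3.10.9. The letter search was tested on random sequences with planted strings. The width, interval and symbol rules were checked on single made-up cases, and the overlap counts were not. There is no test between conditions. Every member was named. The members, modules, gene lists and letter strings were chosen with earlier results of these data known. Med27, Med28, Med29 and Med30 were listed with the tail, although structures also place them at the head. Protein identity of paralogs was not computed, and 1 divergent pair is not reported here. Alternatives were every line, width filters, other TSS distances, other gene assignments, merged peaks, medians, other search windows and the list without Med13l.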

Additional observations from a re-analysis of the deposited data

How the results depend on the processing

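Of 52 alternative values over 15 results, 42 stayed close to the reported value and 10 did not, where a share or median width had to stay within its 95% interval and a count or mean within 1.5 times. With peaks wider than the median of the list, 17 members had a peak and 17 had 1 within 1 kb of a TSS, 70.8% of member peaks lay within 1 kb, the median widths were 1559 bp for promoter and 1269 bp for distal peaks, and Med13l had 7 peaks. This filter removes narrow peaks by construction. Without Med13l the share within 1 kb was 70.7%. The median number of peaks per member gene was 1, against a mean of 1.80. Counting by gene body and 2 kb upstream left Med13l with 4 peaks, since it omits the upstream series. Searching whole peaks found a letter string in all 12 distal Med13l peaks, against 7 in the central 300 bp. Of all distal peaks of the list, 93.9% held a string in the whole peak and 64.9% in the central 300 bp.

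No paired analysis was possible because the list is common to both replicates and comes from no test, and for the same reason no replicate was left out. Depth per replicate is unknown. Regions found in a single replicate were dropped before deposit, and a missing peak is no measurement of closed chromatin.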
